A study of Bos taurus with 38 samples.

Results

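The most abundant transcripts of bovine rumen papillae were defined as the genes that were listed at the end of both feeding periods and had a mean deposited value of 500 or more over all 38 samples. This rule chose 236 of the 12543 genes listed in both periods, that is 1.88%, and of 12802 genes listed in either period. The genes were thus chosen by their measured level and by nothing else. The unit of the values is not given in the sources used here. They matched CPM, reads per gene relative to the size of the library, with sizes scaled by TMM (trimmed mean of M values). Levels, ranks and shares below come from the same values that chose the genes and are given as a description without tests.

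Samples were rumen epithelium of 38 purebred male Holstein Friesian cattle, one sample per bull, all on the same concentrate and grass silage ration. RES bulls had a restricted allowance for 125 days (Period 1, n = 9). Other RES bulls were restricted likewise and then re-fed for 55 more days (Period 2, n = 10), during which restricted cattle show compensatory growth. Re-feeding began with a transition in which intake was built up, and unrestricted feed followed. ADLIB bulls had ad libitum access throughout and were sampled at the end of Period 1 (n = 9) or of Period 2 (n = 10). Papillae were taken at slaughter, so the bulls of Period 2 were other animals, and period, age and slaughter day cannot be told apart. Muscle is named in the extraction protocol of the labels, whereas the tissue field and the methods of the study name the rumen, and the tissue could not be checked against marker genes because no identifier was paired with a gene symbol in the tables used here. For the same reason genes are called by their rank, from R1 for the highest mean to R236 for the lowest, and no sequence is shown.

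Rumen papillae are folds of a stratified squamous epithelium that absorbs the volatile fatty acids made by microbial fermentation and forms a barrier against the rumen contents. In the polyadenylated RNA of an animal tissue, a small number of genes usually supplies a large part of all transcripts. Transcripts for ribosomal proteins, translation factors, the cytoskeleton and mitochondrial respiration are commonly among these, and in squamous epithelia so are keratins. Which of the 236 genes belong to those classes was not determined. Ranks are by reads and not per length, since gene lengths were not paired with these identifiers, so a long gene ranks above a short one at the same number of transcripts. How reads of near-identical gene copies were shared out is not stated, and the level of a gene with such copies is uncertain.

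The depth was 5948453 to 11957654 recovered reads per sample (median 9391961.5). Behind a value of one of the 236 genes in one sample stood 85 reads or more, with a median of 9007.5. In a single library, counting error was therefore small against the differences described. It was 0.0389 percentage points for the share of all 236 genes in the library with the highest share (the margin of the 95% Wilson interval on each side), and such intervals cover counting error only. A digit in the library names (1 to 4) is not explained in the labels, and the 10 libraries of digit 1 had fewer reads (5948453 to 7349256) than those of the other digits (7788934 or more). A single library stood apart by its high values. ADLIB Period 2 replicate 5 had the highest value of all 38 samples for 115 of the 236 genes, against at most 18 for any other library, and its values summed to 1320453, against a median of 987909.853. Its scaled library size was 0.757 of its recovered reads, against 0.901 or more in the other libraries, and this scaling raises every value of the library. Shares of the listed values do not depend on it. At the low end, ADLIB Period 1 replicate 4 had the lowest value of all 38 samples for 38 of the 236 genes. RES Period 2 replicates 4 and 8 followed with 29 and 26.

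R1 was the most abundant gene in each of the 38 samples. Its value ranged from 50966 to 110583 in ADLIB Period 1 with a median of 87912, and from 59169 to 104550 in RES Period 1 with a median of 83922. In Period 2 it ranged from 47177 to 139365 in ADLIB (median 82214) and from 52986 to 87654 in RES (median 73788). The 4 groups overlapped over most of their range, and the highest value belonged to ADLIB Period 2 replicate 5. R1 held between 4.87% and 10.9% of all listed values, with a median of 8.18%. The highest share was in ADLIB Period 2 replicate 8, while replicate 5 of that group stood at 10.6%. The mean of R1 was 5.38 times that of R2. In bulk tissue, fewer cells that make a transcript and less of the transcript per cell cannot be told apart, here or for any gene below.

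Below R1 the levels fell without another such step. Mean values were 14990 for R2, 14074 for R3, 13012 for R4 and 12507 for R5, then decreased to 4014 for R20. The mean of R1 was 161 times that of R236. Between them lay 16 genes at 5000 or more (R1 included), 36 genes from 2000 to 5000, 71 from 1000 to 2000 and 113 from 500 to 1000. Just inside the threshold were R234, R235 and R236 with means of 505.1, 504.6 and 501.1, and the next 3 genes in order had 497.7, 497.4 and 492.8, so the threshold divides a continuous series.

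Neighbours in this order were often not distinct. R2 ranged from 7833 to 30734.5 over all samples, R4 from 6367 to 23410.4 and R5 from 8685 to 20497. In single samples the rank of R2 lay between 2 and 8, that of R4 between 2 and 12 and that of R5 between 2 and 9. R3 took ranks from 2 to 34. The order of R2 to R5 thus changed between animals, while R1 kept its place.

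**Figure D1:**
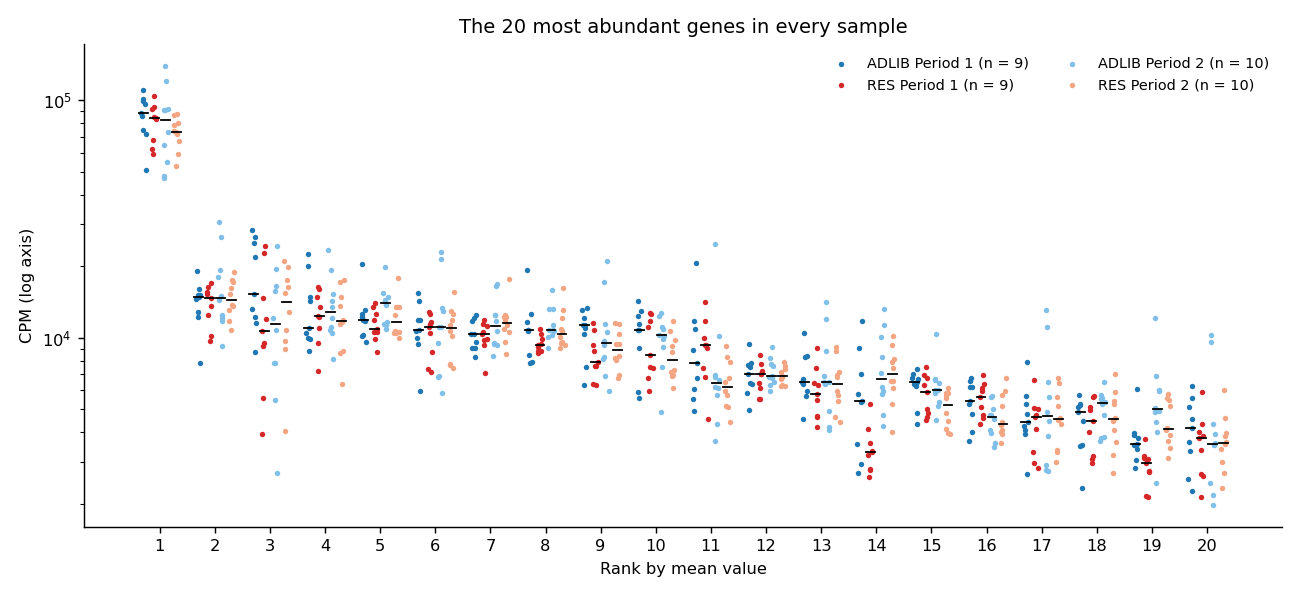
CPM (log axis) of the 20 genes with the highest means in each of the 38 samples, by group. Points are bulls and black bars group medians. R1 stands above all others in every group, while R2 to R11 overlap, and R14 is low in RES at the end of Period 1, with a median of 3294.

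The share of all values held by these genes was large and similar in every group. All 236 genes together held 49.3% of the listed values (median of 38 samples, from 45.7% to 58.2%), although they made up 1.88% of the genes. The 5 most abundant held 13.4% (10.2% to 17.0%), the 10 most abundant 18.4% (14.9% to 23.5%), the 20 most abundant 24.1% (19.9% to 30.6%) and the 100 most abundant 39.2% (35.2% to 47.7%). The rest of the share was thus spread thinly over many genes.

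By group, the share of all 236 genes was 51.1% in ADLIB Period 1 (45.7% to 53.8%), 49.6% in RES Period 1 (46.0% to 51.8%), 49.0% in ADLIB Period 2 (45.8% to 58.2%) and 49.2% in RES Period 2 (47.1% to 50.4%), each as the median and range. All 4 ranges overlapped. RES Period 2 was the narrowest, with an SD of 1.00 percentage points, and ADLIB Period 2 the widest, with an SD of 3.75. The upper end of ADLIB Period 2 was replicate 5, and the next highest sample of all stood at 54.0%. Medians within the 4 library digits lay between 49.2% and 49.7%.

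**Figure D2:**
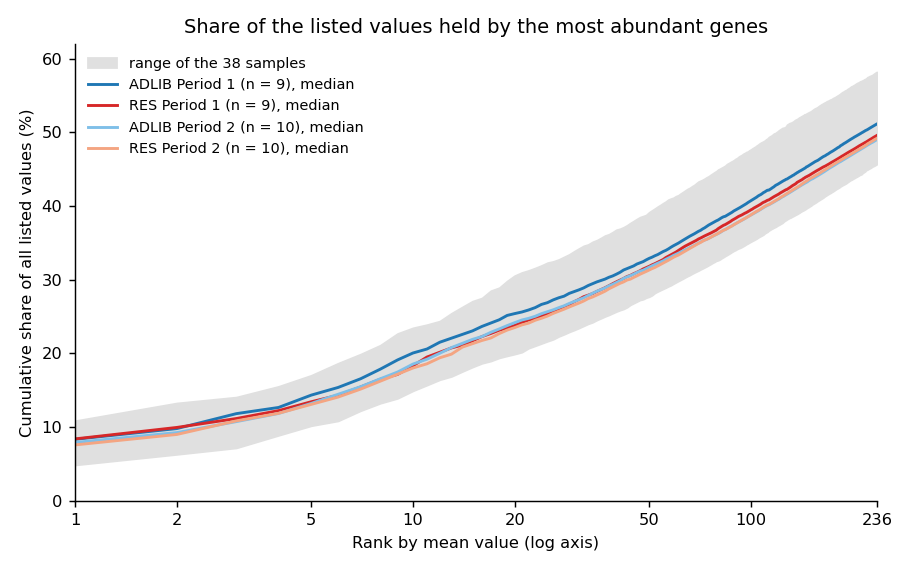
Cumulative share (%) of all listed values against rank (log axis) for the 236 genes. Lines are group medians and the grey band is the range of the 38 samples, which ends between 45.7% and 58.2%. The group lines lie close together at all ranks, with ADLIB Period 1 uppermost from R10 on.

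Membership was stable over diet and period for most of the genes. When each group was ranked by its own mean, 220 of the 236 genes were among the 236 highest in all 4 groups, and 247 genes were so in at least 1. The mean that chose the genes includes all 4 groups, so part of this overlap follows from the rule. The 20 highest genes of the 4 groups came to 22 genes, of which 19 were shared by all 4. Gene by gene, 150 of the 236 had a value of 500 or more in every sample, and 205 in at least 30 samples.

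At the level of single animals the order was looser. A rank of 236 or better in every sample was held by 158 genes. Over the 38 samples, 18 genes appeared in a top 10 at least once, but only R1, R2 and R5 were in the top 10 of all 38. No gene ranked beyond 20 by its mean entered a top 10. A value of 500 or more in at least 1 sample was reached by 127 genes outside the 236. Between 201 and 284 genes per sample had 500 or more. Genes listed in 1 period only were all of low level, and the highest had a mean of 11.0 over the samples of its period.

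The spread between bulls of one group was far above counting error at these levels. The within-group coefficient of variation (CV, the SD as a percentage of the mean, taken as the median of the 4 groups) had a median of 16.8% over the 236 genes, with quartiles at 13.8% and 22.3%, where counting alone gives 1.09%. Over all 12543 genes the median was 18.4%, where counting alone gives 7.75%. A higher level did not go with a smaller CV throughout. The median CV was 29.6% for genes with a mean under 10, 16.1% from 10 to 50, 13.7% from 50 to 100 and 14.0% from 100 to 500, then 16.5% from 500 to 2000 and 19.3% at 2000 or more. Among the abundant genes the spread was thus larger at the highest levels than for genes of middle level, and counting error was smallest there (0.624% at 2000 or more).

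By group, the median CV of the 236 genes was 17.6% in ADLIB Period 1, 16.0% in RES Period 1, 21.9% in ADLIB Period 2 and 15.4% in RES Period 2. Without ADLIB Period 2 replicate 5, the value of its group was 15.9%. The order of the groups therefore changed with that library. Over all genes the 4 medians were 18.1%, 17.4%, 20.1% and 18.5%.

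R113 had the largest spread between animals, with a CV of 84.7%. It ranged from 114 to 2805 in ADLIB Period 1 (median 480), from 245 to 2107 in RES Period 1 (median 671), from 177 to 2609 in ADLIB Period 2 (median 1025) and from 84.3 to 3043 in RES Period 2 (median 801). Low and high bulls occurred in each group, and the rank of R113 in single samples ran from 23 to 1770. R84 had a CV of 57.8%, with values between 467 and 5021, the highest in RES Period 2 replicate 1. R44 had a CV of 52.5% and lay between 621 and 5138.

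R113, R44, R84 and R4 were high and low in much the same animals. Counting the 36 samples that did not define a median of R113 in their group, R44 was on the same side of its group median as R113 in 32, R84 in 31 and R4 in 31. R165 and R140 followed with 30 and 29, and R120 and R147 with 28 each. R82 and R181 were on the opposite side in 29 samples, and R188 and R89 in 28. The median over the other members was 14. The number of reads was on the same side as R113 in 18 of the 36 samples and the sum of values in 15. These genes share library, scaling and animal, and the counts are a description.

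R184 departed from its own level in 2 bulls. Its value was 7.78 in ADLIB Period 1 replicate 9 and 18.3 in RES Period 2 replicate 4, whereas the other 36 samples lay between 198 and 1597. Its group medians were 663 in ADLIB Period 1, 687 in RES Period 1, 696 in ADLIB Period 2 and 475 in RES Period 2. R184 had a CV of 54.6%. R152, also among the 8 genes with the largest CV, was on the same side as R184 in 31 of 36 samples, where the median over members was 17.

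R3 combined a high level with a large spread. Its lowest, median and highest values were 8704, 15309.5 and 28489.6 in ADLIB Period 1 and 3948, 10633 and 24292 in RES Period 1. In Period 2 they were 2689, 11421 and 24378 in ADLIB and 4066, 14133 and 20954 in RES. The CV was 47.9%, and the groups overlapped. R11 was marked by single bulls, with 24739.6 in ADLIB Period 2 replicate 9 and 20573 in ADLIB Period 1 replicate 3, against a median of 6821 over all samples. R48 (CV 45.5%), R152 (44.9%) and R221 (49.4%) completed the 8 largest. R221 reached 1992 in RES Period 2 replicate 5 and 1463 in ADLIB Period 2 replicate 5, with group medians between 387 and 492.

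At the other end stood the genes with the smallest CVs. R209 had the smallest CV, 6.91%, and lay between 482 and 707 over all 38 samples, with group medians of 564, 577, 591 and 527 in ADLIB Period 1, RES Period 1, ADLIB Period 2 and RES Period 2. R96 had a CV of 7.34% and lay between 998 and 1364. R216, R91, R217, R233, R236 and R192 followed with CVs from 8.03% to 8.70%. Single bulls still stood off, since R217 lay between 443 and 811, R233 between 413 and 805 and R236 between 343 and 604 over all samples. All of them except R91 and R96 were of rank 192 or later.

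**Figure D3:**
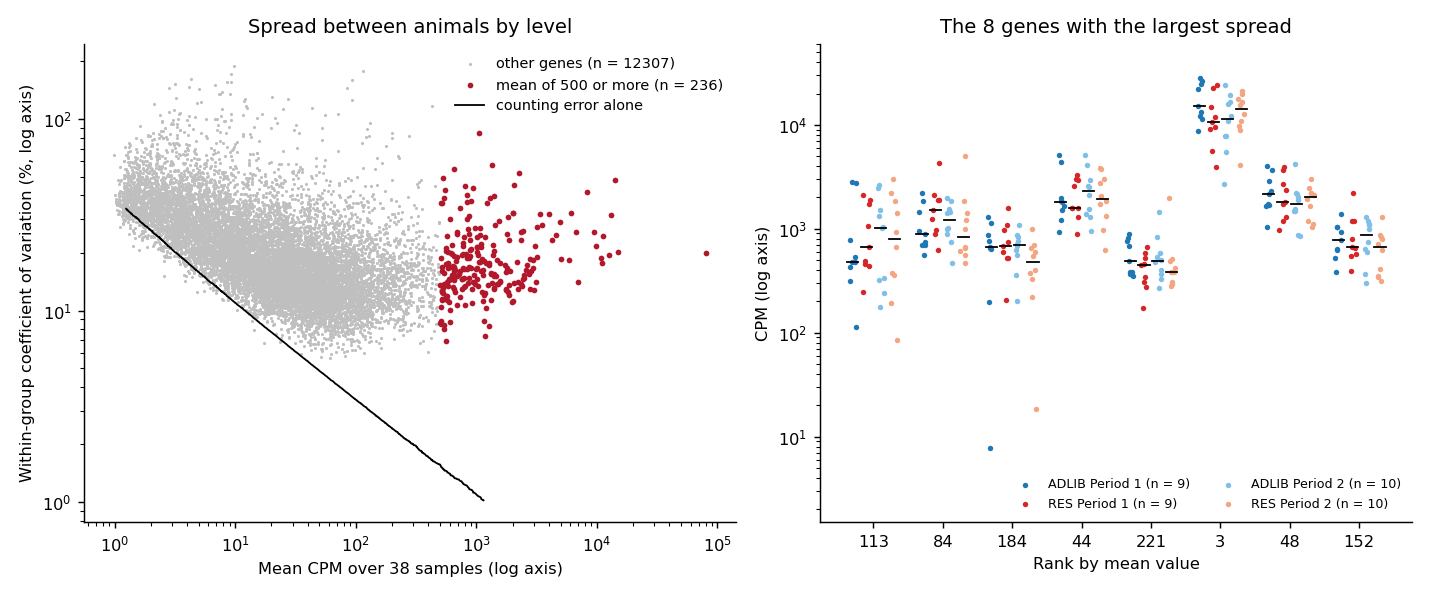
Left, within-group CV (%, log axis) against mean CPM (log axis) for 12543 genes, with the 236 abundant genes in red and the CV that counting error alone gives as a line. Right, CPM (log axis) of the 8 genes with the largest CV in each sample by group, with black bars at the medians. The red points lie well above the line, from 6.91% to 84.7%, and R184 shows the 2 low samples at 7.78 and 18.3.

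A set of abundant genes stood close together in the list of Ensembl identifiers. Identifier numbers within one window of 40 held 17 listed genes, and 13 of these were among the 236 (R1, R2, R6, R9, R13, R17, R20, R21, R50, R80, R93, R221 and R231). No other window of that width held more than 4 of the 236. This set was noticed after the values were seen, and closeness of identifiers gives neither position nor function. It included 7 of the 20 highest means.

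These 13 genes held between 9.23% and 21.4% of all values, with a median of 13.9%. Group medians were 14.3% in ADLIB Period 1 (9.72% to 18.6%), 14.5% in RES Period 1 (10.9% to 15.9%), 13.5% in ADLIB Period 2 (9.23% to 21.4%) and 13.6% in RES Period 2 (10.1% to 16.1%), so the groups overlapped. The other members held 35.8% (32.6% to 39.3%). All 13 had a CV above the median of the 236, from 19.9% to 49.4%. Apart from R1 itself, they were on the same side as R1 in 24 to 31 of 36 samples, with a median of 27 against 21 for the other members. The sum of all values in a sample, which contains them, was on the same side as R1 in 33 of 36 samples.

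Some pairs kept a nearly fixed ratio while both changed between animals. R183 was 1.06 to 1.25 times R210 in all 38 samples, although R183 itself ranged from 465 to 1075. R54 was 1.76 to 2.24 times R127. R214 and R219 had a ratio between 0.811 and 1.25, although R214 ranged from 128 to 1231 and R219 from 144 to 1090. These pairs were chosen after the values were seen.

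Differences between the groups were then estimated for the 236 genes in a fit across all genes (limma on log2(CPM + 1), p-values adjusted by Benjamini-Hochberg over all genes tested). Tests were two-sided. The choice of members used the mean over all samples and no difference between groups, but the members were not chosen blind to earlier results. Each estimate has a 95% interval, and an interval within 0.5 of 0 on the log2 scale places the fold change between 0.707 and 1.41. On group means, 127 of the 236 genes (53.8%) differed by less than 1.2-fold between the highest and lowest of the 4 groups, against 62.2% of all genes. A difference of more than 1.5-fold was found in 11 genes (4.66%), against 7.26% of all genes. The median share of variance between groups was 12.2% for the 236 genes and 9.02% for all.

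The effect of dietary restriction was addressed by comparing RES with ADLIB at the end of Period 1. None of the 236 genes passed an adjusted p of 0.05, where 0.00792% of all genes tested did. At an unadjusted p under 0.05 there were 11 (4.66%), against 9.23% of all genes. On the recovered reads 0 members passed by edgeR's quasi-likelihood test, its exact test or DESeq2, by which 0.00792%, 0.396% and 0.491% of all genes passed. The log2 fold change, RES minus ADLIB, had a median of -0.07 and ran from -0.67 in R14 to 0.66 in R184. It was below 0 in 172 members (72.9%), against 50.3% of all genes. That count ran from 156 without RES Period 1 replicate 1 to 187 without ADLIB Period 1 replicate 4. The median ran from -0.09 to -0.04 when a bull was left out. The interval lay within 0.5 of 0 for 188 of the 236 genes (79.7%), against 78.5% of all genes. The ADLIB group of R184 includes its low bull at 7.78, and its medians were 663 in ADLIB and 687 in RES. R184 had the widest interval, from -0.80 to 2.13. The gene was thus not shown to be stable, and the same holds for R113, with an interval from -0.75 to 1.49.

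For R1 the difference between diets was -0.08 with an interval from -0.69 to 0.52 in Period 1, and -0.09 with an interval from -0.67 to 0.48 in Period 2. In linear terms the estimates were 0.945-fold and 0.938-fold. With this spread between bulls, a change of R1 inside these intervals was not excluded. R96, one of the evenest genes, had a difference of -0.02 with an interval from -0.17 to 0.12 in Period 1.

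RES and ADLIB were compared again at the end of Period 2, after both had been fed ad libitum. None of the 236 genes passed, where 0.0% of all genes did (0 of 12541 by limma, and 0 members and 0.0% of all genes by each of the other 3 tests). An unadjusted p under 0.05 was found in 29 members (12.3%), against 4.82% of all genes. The fold changes leaned to one side. They were below 0 in 201 members (85.2%), against 49.7% of all genes, and their median was -0.14, or 0.910-fold, where all genes had 0.00. This lean was smaller without ADLIB Period 2 replicate 5, at 179 members and a median of -0.09. When values were scaled to the listed total without TMM, 151 members were below 0 (64.0%), against 25.5% of all genes, and the median was -0.05 against 0.08 for all genes. The interval lay within 0.5 of 0 for 174 members (73.7%), against 83.0% of all genes. This count also turned on single libraries, from 147 without ADLIB Period 2 replicate 7 to 197 without replicate 5. R128 had the lowest estimate, -0.87, and was looked at after its values were seen. It ranged from 568 to 3283 in ADLIB Period 2 (median 1242), with the highest value in replicate 5, and from 180 to 1304 in RES Period 2 (median 700).

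The change during re-alimentation was taken from RES Period 2 against RES Period 1. Here 6 members passed and all 6 were higher in Period 2 (2.54% of the 236). Of all genes, 1.63% passed, 0.822% being higher and 0.806% lower. No member was lower by this test. An unadjusted p under 0.05 was found in 53 members (22.5%), against 15.5% of all genes. The interval lay within 0.5 of 0 for 187 members (79.2%), against 76.9%, and 137 members were below 0 (58.1%), against 48.4%. The count of members that passed differed between tests. It was 17 by DESeq2 (9 higher, 8 lower), by which 3.64% of all genes passed, 15 by edgeR's exact test (9 higher, 6 lower), by which 2.86% did, and 6 by the quasi-likelihood test, by which 1.57% did. With the library digit as a covariate 2 members passed, and 0.822% of all genes. Without RES Period 2 replicate 3, 3 members passed, and 1.09% of all genes.

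R14 (ENSBTAG00000004855) rose most. Its lowest, median and highest values were 2598, 3294 and 5272 in RES Period 1 and 4009.8, 7043 and 10129.9 in RES Period 2. In ADLIB they were 2702, 5402 and 11755 in Period 1 and 4245, 6668 and 13258 in Period 2. All 9 bulls of RES Period 1 lay below the median of RES Period 2, and the ranges overlapped between 4009.8 and 5272. The log2 fold change was 1.04 (SE 0.163, limma adjusted p = 0.00200), or 2.06-fold. It passed under every alternative, with adjusted p up to 0.0180, and in every fit that left out a bull (largest 0.00606). In ADLIB the change was 0.43 with an interval from -0.13 to 1.00 (unadjusted p = 0.125 by limma). The difference between the changes was 0.61 with an interval from -0.05 to 1.26 and did not pass (limma adjusted p = 0.998).

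R151 (ENSBTAG00000010365) had the next smallest adjusted p. It ranged from 613 to 771 in RES Period 1 (median 667) and from 753 to 967 in RES Period 2 (median 862). The ranges met only between 753 and 771. ADLIB lay at 698 to 1034 in Period 1 (median 756) and at 609 to 1042 in Period 2 (median 847). The log2 fold change in RES was 0.35 (SE 0.0657, limma adjusted p = 0.00903), or 1.27-fold, and 0.13 in ADLIB. With the library digit as a covariate its adjusted p was 0.0416.

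R19, R97, R110 and R124 were the other members that passed. R19 went from 2140.3 to 3729.9 in RES Period 1 (median 2961) to 3111 to 5782 in RES Period 2 (median 4121), a log2 fold change of 0.62 (SE 0.135, limma adjusted p = 0.0185). R110 went from 547 to 970.1 (median 722) to 788 to 1920.1 (median 1171), a change of 0.71 (limma adjusted p = 0.0282). In both, the upper part of RES Period 2 lay above every bull of RES Period 1, while the lower part overlapped with it.

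R97 changed by 0.35 (limma adjusted p = 0.0268), with medians of 955 in RES Period 1 and 1222 in RES Period 2. R124 changed by 0.31 (limma adjusted p = 0.0360), with medians of 847 and 1021. With the library digit as a covariate the adjusted p of these 4 genes lay between 0.0944 and 0.108, and with all 4 groups in one fit R19 (0.0764), R97 (0.0719) and R124 (0.101) did not pass either. In that fit R166, not called in the main fit, passed (limma adjusted p = 0.0470, log2 fold change 0.31). Estimates of the 4 genes moved little with the digit, to 0.57 for R19, 0.32 for R97, 0.63 for R110 and 0.29 for R124. Leaving out single bulls took R97 past 0.05 in 4 of 19 fits, R110 in 5 and R124 in 11, and R19 in none. Within library digits all 6 genes were higher in Period 2 at each of the 4 digits, except R110 at digit 4, where 3 bulls of Period 1 and 1 of Period 2 gave -0.08 on the log2 scale. Some digits held only 1 bull of a period, so these are values without a test.

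RES Period 1 had the lowest mean of the 4 groups for each of these 6 genes. Against ADLIB Period 1 the log2 differences were -0.67 for R14, -0.39 for R19, -0.14 for R97, -0.23 for R110, -0.24 for R124 and -0.20 for R151, none of which passed. That comparison shares its RES samples with the change over time. In ADLIB, which shares no sample with it, the 6 changes from Period 1 to Period 2 were 0.43, 0.50, 0.35, 0.61, 0.10 and 0.13 in the same order, and none passed.

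**Figure D4:**
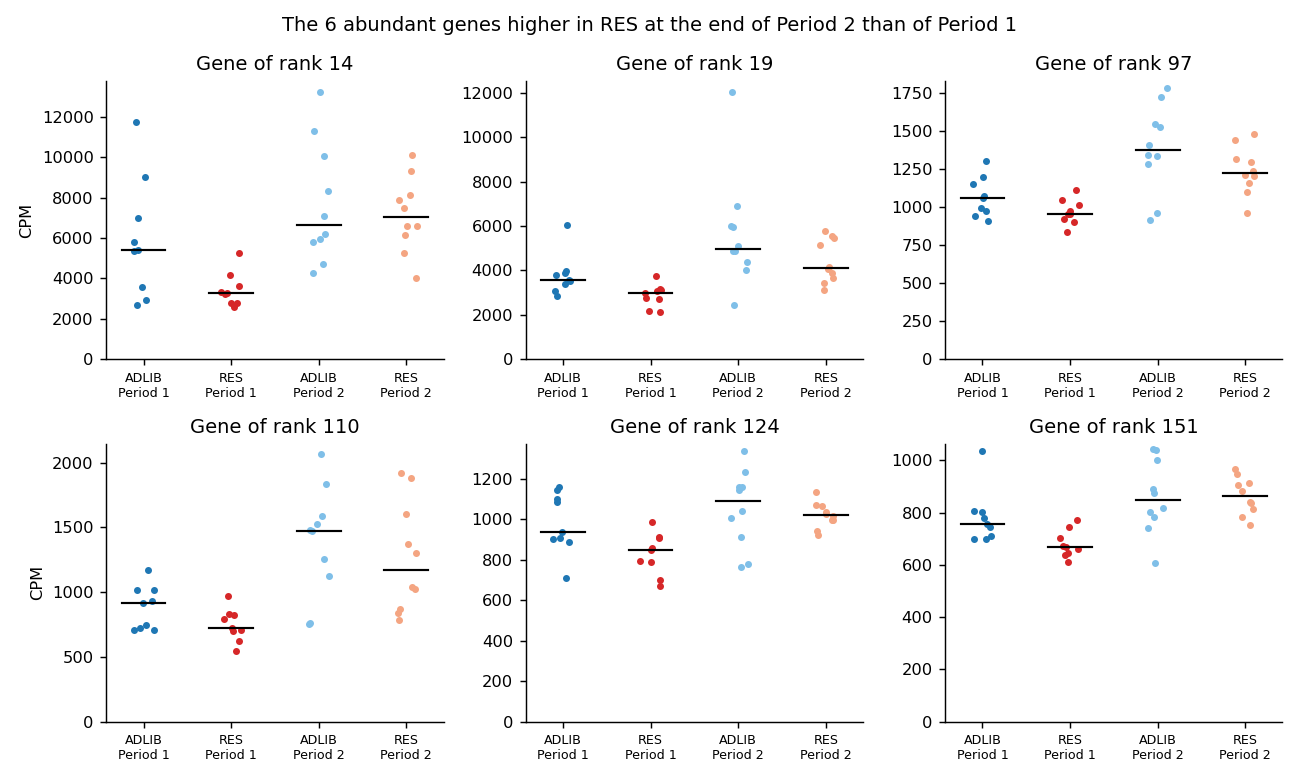
CPM of the 6 abundant genes that were higher in RES at the end of Period 2 than of Period 1 (limma, adjusted p under 0.05), in each bull of the 4 groups, on axes that start at 0. Black bars are medians. RES Period 1 is the lowest group in each panel, as for R14 with a median of 3294 against 7043 in RES Period 2, and all panels show overlap between groups.

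Within ADLIB, none of the 236 genes passed between the periods, where 0.0% of all genes did (0 of 12526 by limma). By the quasi-likelihood test, the exact test and DESeq2, 0 members passed, where 0.0%, 0.016% and 0.0319% of all genes did. Single intervals excluded 0 before adjustment, as in R110 (0.25 to 0.96), R97 (0.10 to 0.60) and R19 (0.06 to 0.94). There were 18 members (7.63%) at an unadjusted p under 0.05, against 5.73% of all genes. Estimates ran from -0.69 in R3 to 0.72 in R128, with a median of 0.01, and 109 members were below 0 (46.2%), against 51.0% of all genes. This balance turned with single libraries. Without ADLIB Period 2 replicate 5 the median was -0.04 and 139 members were below 0, and without replicate 7 of the same group the median was 0.04 and 81 members were below 0. The interval lay within 0.5 of 0 for 171 members (72.5%), against 80.5% of all genes. R3 had an interval from -1.42 to 0.04, so its level in ADLIB over time was poorly bounded.

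Whether the change over time differed between RES and ADLIB was tested with all 4 groups in one model. None of the 236 genes passed, where 0.0239% of all genes did. By edgeR's quasi-likelihood test and DESeq2, 0 members passed, where 0.0159% and 0.0319% of all genes did. An unadjusted p under 0.05 was found in 9 members (3.81%), against 4.78% of all genes. The interval lay within 0.5 of 0 for 134 members (56.8%), against 57.8% of all genes, and for 102 to 147 members when a bull was left out. Estimates were below 0 in 166 members (70.3%), against 49.4% of all genes, with a median of -0.09. Without ADLIB Period 2 replicate 5, 138 members were below 0 and the median was -0.03. Estimates ran from -1.45 in R184, which includes its 2 low bulls, to 0.90 in R3. No member had groups without overlap in any of the 4 pairwise comparisons, where the share of all genes was 0.00797% for diet in Period 1, 0.0% for diet in Period 2, 0.144% for time in RES and 0.0% for time in ADLIB.

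**Figure D5:**
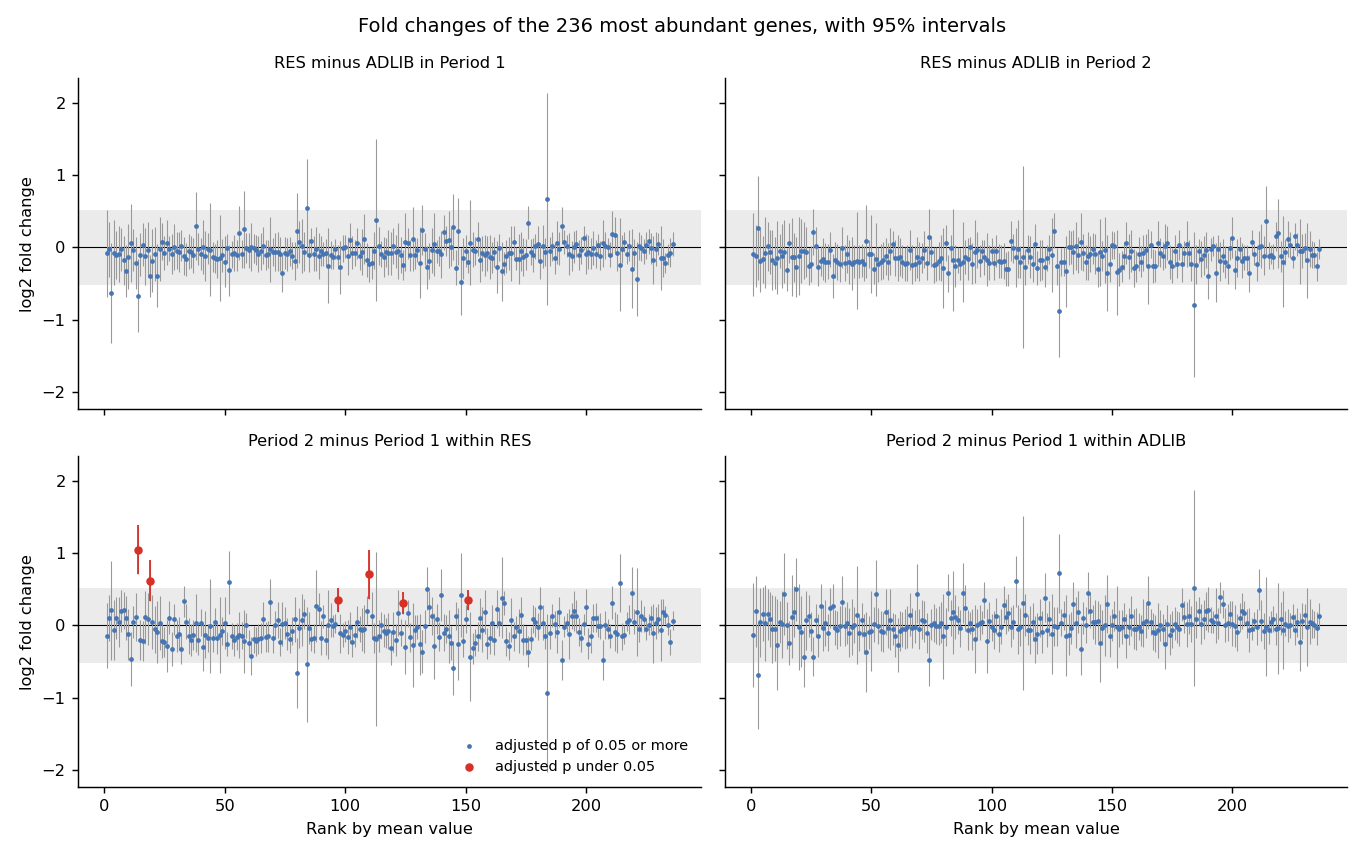
Log2 fold change of each of the 236 genes (points) with its 95% interval (lines) against rank, for the 4 pairwise comparisons. The grey band marks 0.5 either side of 0. Most intervals lie in the band, in 188, 174, 187 and 171 genes from the upper left to the lower right panel, and the 6 red points, which passed an adjusted p of 0.05, are in the RES comparison over time.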

How the data were processed

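RNA-seq was carried out on rumen papillae of 38 bulls in 4 groups, read from the sample labels (ADLIB and RES, Period 1 with 9 and Period 2 with 10 bulls each; the study states 10 per group). Replicates are separate bulls. The authors trimmed single-end reads, aligned them to UMD3.1 with TopHat and Bowtie2, counted reads per Ensembl gene with HTSeq, removed genes of low count and deposited 1 value per gene and sample. The submitters' notes name CASAVA 1.4, Bowtie, SAMtools, HTSeq and edgeR. The deposited values are a signal per gene, whose unit is not given in the sources used here. They matched CPM on TMM-scaled library sizes, computed for each period separately. Reads were recovered in every sample from the value of 1 read (0.0744 to 0.213). Whether values were whole multiples of it was checked only for values of low read number, and 100% of these were. Most values of the abundant genes rest on more reads and were not part of this check. Depth was 5948453 to 11957654 reads per sample.

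Values were tested with limma 3.58.1 (R 4.3.3) on log2(CPM + 1) after filterByExpr and TMM scaling of the samples fitted (edgeR 4.0.16), with eBayes and a trend. The fit covered all genes, with Benjamini-Hochberg adjustment over them. As the values are not counts, count tests (edgeR, DESeq2 1.42.0) on recovered reads were alternatives. So were a pseudocount of 0.1, voom, RLE scaling, no TMM, no filter, the library digit, the replicate number as a block, all groups in one fit and leaving out each bull. Alternatives for the counts of intervals and the share without its highest library were chosen after seeing the data. The limma script was tested on simulated data. Python 3.11.15 with pandas 2.3.3 and matplotlib 3.10.9 served for tables and plots.

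The members and lists were chosen with earlier results of these data known. Named genes were the 20 highest means, each member that passed, the 8 largest and 8 smallest CVs and 3 genes either side of the threshold. R128, R166, the genes compared by side of the group median, the set of neighbouring identifiers and the pairs of fixed ratio fall outside that rule. They were chosen after their values were seen. Lists of genes by symbol and cell type markers were void, as 0 of 12802 identifiers were paired with a symbol, so nothing is reported from them, and 2 identifiers are printed.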

Additional observations from a re-analysis of the deposited data

Results flagged for a closer look

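The highest or lowest bull stood apart from the others of its group in 16 of 168 combinations of a group with one of 42 measures (39 named genes on the log2 scale and 3 shares), by Dixon's ratio of the gap to the nearest bull over the range. Chance flags about 1 in 20, or 8.4 of these, where measures are chosen without regard to spread. The named genes included the 8 largest and 8 smallest CVs, and a single extreme bull can make a CV large. The 16 flags can therefore not be read as an excess over 8.4. In ADLIB Period 1, replicate 4 was lowest for R2 (7833, the next bull 12170), R91 (1034, the next 1200) and R236 (342.7, the next 460.1). Replicate 5 of that group was highest for R5 (20500, the next 13050) and R19 (6070, the next 3963), and replicate 7 for R151 (1034, the next 804.5) and R209 (658.2, the next 574.4). Replicate 9 was lowest for R184 (7.778, the next 197.8).

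In RES Period 1, replicate 7 was lowest for R7 (7102, the next 9282). In ADLIB Period 2, replicate 5 was highest for R15 (10320, the next 6676) and R217 (811.2, the next 621). In RES Period 2, R3 was lowest in replicate 7 (4066, the next 8980), R5 was highest in replicate 1 (17770, the next 13520) and R7 in replicate 9 (17720, the next 12480). R184 was lowest in replicate 4 (18.35, the next 218.3), and R221 was highest in replicate 5 (1992, the next 514.5). None of the shares was flagged in any group, and no cause was tested.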

How the results depend on the processing

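Direction and side of the threshold were kept by most results. The 236 members became 235 with values scaled to the listed total, 231 by the median (230 of them shared) and 236 by group means or joint TMM. Their share stayed between 49.1% and 49.3%, and their median CV between 15.4% and 18.7%, or 16.4% to 17.2% when 1 bull was left out. No member passed in the diet comparisons, within ADLIB or in the difference of changes under any alternative (0 to 0 when a bull was left out). Within RES over time, 6 members passed, 17 by DESeq2, 15 by edgeR's exact test and 2 with the library digit as a covariate; the cause was not tested. Leaving out a bull gave 3 (without RES Period 2 replicate 3) to 9. The study assigned bulls to diets within blocks of live-weight and age, but whether replicate numbers stand for these blocks is not stated. Same-numbered samples correlated above 0.1 in 5 of 9, 2 of 10, 3 of 9 and 3 of 9 pairs. For diet in Period 1 the mean correlation was 0.121, against -0.0139 for other pairs, and for same-numbered pairs elsewhere it was at most 0.0325. These values cannot decide whether the numbers pair the bulls. With the number as a block within RES over time, RES Period 2 replicate 10 had no partner and was left out. In that fit 4 members passed. R97 (adjusted p = 0.0797 by limma, log2 fold change 0.36) and R124 (0.147, 0.31) no longer passed, with changes no smaller than without the block. The exact test was not run for the difference of changes. The median change within ADLIB over time turned sign between leaving out ADLIB Period 2 replicate 5 (-0.04) and replicate 7 (0.04). Each value rested on 85 or more reads.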
